A study of Homo sapiens with 6 samples.

Results

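The mitochondrial ribosomal proteins are the nuclear-encoded proteins of the mitochondrial ribosome. Their mRNAs were followed in human cells in which overexpression of the transcription factor FOXM1 was induced with doxycycline. The members were all protein-coding rows of the authors' comparison table whose symbol is MRPL or MRPS followed by a digit, which gave 75 of 13008 genes, and each of the 75 passed the filter on low values. By the published structures, 48 of them belong to the large subunit, 26 to the small subunit and 1, MRPS36, to neither. Most members were slightly higher with doxycycline: 52 of 75 had a fitted change above 0, and the median change was 0.077 on the log2 scale, against -0.0022 over all 13153 tested genes. No single member passed the test when the libraries were treated as unpaired. When libraries with the same replicate number were compared with each other, 12 members rose, led by MRPS17, MRPL45, MRPS36 and MRPS30, and MRPL15 fell, so that 17.3% of members were called, against 22.5% of all genes.

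Mitochondrial ribosomes translate only the few proteins encoded in the mitochondrial genome, which are core parts of the respiratory chain and of the ATP synthase. Their rRNAs are mitochondrial transcripts, whereas every one of their proteins is made in the cytosol from a nuclear gene and imported. Some of these proteins have a homologue in the bacterial ribosome and others are found only in mitochondria. Doxycycline is a tetracycline, an antibiotic class that binds the small subunit of the bacterial ribosome and also inhibits translation in mitochondria, so the agent used here to induce a gene also acts on the complex that the members build.

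The cells were hTERT-RPE1, a telomerase-immortalised human retinal pigment epithelial line, and all libraries carry the name of 1 stable derivative, Tet-FLAG-FOXM1c-hTERT-RPE1, in which a tetracycline-inducible promoter drives FLAG-tagged FOXM1c. The dox group (3 libraries, genotype given as FOXM1 overexpression) received 1 µg/mL doxycycline each 24 h over 48 h. The no dox group (3 libraries, genotype given as WT) is the same line without it. Polyadenylated RNA was sequenced to ask how the transcriptome responds to FOXM1. No library of the parental line with doxycycline was analysed here, so a response to doxycycline and a response to FOXM1 cannot be told apart in any value below. The labels do not say whether replicates were separate cultures, so p-values measure the spread between these libraries, which may be technical. In bulk RNA, a change in the mix of cells and a change in RNA per cell cannot be told apart either.

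FOXM1 had 65289, 66830 and 74976 normalised counts in dox libraries, against 5009, 4383 and 4292 in no dox libraries, a log2 difference of 3.92 (limma, adjusted p = 4.49e-06), and the labels were borne out in all 6. Reads assigned to genes ranged from 15094498 to 49882123 per library, with replicate 3 the shallowest in each group. Of the markers of pigment epithelium, RPE65, RLBP1, BEST1, TYR, TYRP1 and PMEL were at or near 0 FPKM in every library, at most 0.220, while MITF was at 2.06 to 2.21 FPKM in dox libraries and 2.07 to 2.23 in no dox libraries. OTX2, another of these markers, was at 1.91 to 3.14 FPKM in dox libraries and 2.10 to 3.14 in no dox libraries. The epithelial keratin KRT18 was at 42.1 to 65.2 FPKM in dox libraries and 34.6 to 50.4 FPKM in no dox libraries. With the replicate number as a block, KRT18 rose by 0.32 and KRT8 by 0.29 on the log2 scale (limma, adjusted p = 8.03e-04 and 0.00111), about the size of the largest changes among the members. Without the block neither was called (limma, adjusted p = 0.621 and 0.569). Of 11 markers of other cell types, PTPRC, CD68, DES, MYH3, SOX2, COL1A2, LUM and DCN stayed under 0.1 FPKM in every library. The neuronal tubulin TUBB3 was at 0.838 to 1.02 FPKM in dox libraries and 0.834 to 1.06 in no dox libraries, the fibroblast marker COL1A1 at 5.64 to 11.97 FPKM in dox libraries and 6.14 to 12.7 in no dox libraries, and PDGFRA at 0.184 to 0.284 FPKM in dox libraries and 0.223 to 0.369 in no dox libraries. The 4 of these 11 that were tested all had a fitted change under 0, and PDGFRA, at -0.38, was called only with block (limma, adjusted p = 0.582 without block and 0.0341 with block). The part of these markers in the members' values was not tested.

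Promoters of the members have been described as rich in sites for NRF1, for ETS factors such as GABPA and for YY1. The promoter windows below are shown for that reason, for MRPS17, the member with the largest rise, and for 3 of the next largest risers in which YY1 letters were found. They are RefSeq sequence of build GRCh38.p14, from 250 bases before the annotated start to 50 bases after it, on the plus strand in each case: chr7:55951627-55951926 for MRPS17, chr17:38296918-38297217 for MRPL45, chr5:44808697-44808996 for MRPS30 and chr19:38930694-38930993 for MRPS12. Capitals mark matches on either strand to NRF1 (GCGCANGC), ETS (CCGGAAG) or YY1 (AAGATGGC, which reads GCCATCTT on the other strand).
MRPS17: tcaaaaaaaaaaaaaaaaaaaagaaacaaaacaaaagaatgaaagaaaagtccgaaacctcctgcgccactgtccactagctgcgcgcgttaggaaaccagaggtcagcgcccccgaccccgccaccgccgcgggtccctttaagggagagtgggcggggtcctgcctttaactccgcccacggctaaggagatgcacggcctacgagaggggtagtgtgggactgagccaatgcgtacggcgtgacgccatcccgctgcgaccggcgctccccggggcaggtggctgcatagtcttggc
MRPL45: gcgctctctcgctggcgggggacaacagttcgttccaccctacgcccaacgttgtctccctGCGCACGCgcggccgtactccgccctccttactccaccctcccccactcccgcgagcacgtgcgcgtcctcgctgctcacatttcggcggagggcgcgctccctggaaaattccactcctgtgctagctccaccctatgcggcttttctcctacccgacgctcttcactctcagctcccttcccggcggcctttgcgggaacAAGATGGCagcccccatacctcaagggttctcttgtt
MRPS30: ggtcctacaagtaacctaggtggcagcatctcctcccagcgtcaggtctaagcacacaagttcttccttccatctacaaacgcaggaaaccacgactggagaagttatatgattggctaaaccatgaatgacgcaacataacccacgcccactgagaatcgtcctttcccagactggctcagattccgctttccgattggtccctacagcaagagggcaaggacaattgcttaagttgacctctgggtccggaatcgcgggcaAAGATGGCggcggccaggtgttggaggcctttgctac
MRPS12: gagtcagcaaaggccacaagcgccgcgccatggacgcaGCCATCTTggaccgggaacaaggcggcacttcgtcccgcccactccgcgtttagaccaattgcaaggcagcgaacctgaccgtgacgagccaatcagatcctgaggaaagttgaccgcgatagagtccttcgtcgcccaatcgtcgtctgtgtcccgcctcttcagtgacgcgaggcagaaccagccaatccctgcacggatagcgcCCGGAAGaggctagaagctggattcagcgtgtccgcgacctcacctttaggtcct
The MRPS17 window held none of these letters. MRPL45 held an NRF1 match 189 bases before the start and a YY1 match 13 bases after it, and MRPS30 a YY1 match at the same place, 13 bases after the start. MRPS12 held a YY1 match 212 bases before the start, on the minus strand, and an ETS match 5 bases before it. MRPS12 has 2 windows, of which the most upstream is shown. The windows of MRPS36 and MRPS2, also among the largest risers, held no YY1 letters and are not printed. How often risers hold YY1 letters is therefore not to be read from the windows shown.

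RefSeq windows were found for 67 of the 75 members; MRPL2, MRPL10, MRPL13, MRPL15, MRPL21, MRPL23, MRPL35 and MRPS28 had no entry. YY1 letters were found in 21 of 67 members (31.3%), against 4.67% of 15843 protein-coding genes with windows. ETS letters were found in 28 members (41.8%), against 16.5% of protein-coding genes, and NRF1 letters in 21 (31.3%), against 19.5%. At least 1 of the 3 was present in 51 members (76.1%), against 34.3% of protein-coding genes, although the members' windows were slightly poorer in G and C, at a median of 59.3% against 62.3%. Among the 11 members that rose and had a window, ETS letters were in 1, YY1 letters in 4 and NRF1 letters in 3, against 27, 17 and 18 of the 56 other members. The forkhead letters TAAACA, of the kind FOXM1 can bind, were in 3 members (4.48%), against 12.1% of protein-coding genes, and in 0 of the 11 risers. The letters TTTGAA, known from promoters of cell cycle genes, were in 5 members (7.46%), against 15.9% of protein-coding genes. They were in 1 of the 11 risers, MRPS36, and in 4 of the 56 other members. Genes with several annotated starts were counted once, as holding a motif if any of their windows did, and these matches are descriptions of letters, not of binding.

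The members' mRNAs were unequal in level. Per kilobase of merged exon, which could be computed for 73 members, the level in CPM (counts scaled to the depth of the library) had a median of 14.3 and a 62.9-fold range. MRPS34, a mitochondria-specific protein of the small subunit, was highest at 74.7 ± 2.92 in dox libraries and 77.3 ± 6.87 in no dox libraries (CPM per kb, mean ± SD, n = 3 each). MRPL51 followed at 61.0 ± 3.20 in dox libraries and 55.3 ± 5.98 in no dox libraries, and MRPL14 at 46.1 ± 3.79 in dox libraries and 48.9 ± 7.96 in no dox libraries. MRPL14, MRPL15 and MRPS16, the third to the fifth in this order, lay within each other's spread. The lowest were MRPL46, at 1.21 ± 0.0698 in dox libraries and 1.21 ± 0.141 in no dox libraries, MRPL53, at 1.43 ± 0.328 in dox libraries and 1.30 ± 0.356 in no dox libraries, and MRPL38, at 1.53 ± 0.243 in dox libraries and 1.57 ± 0.0630 in no dox libraries, and the spread of MRPL53 covered both of the others. MRPL53 is overlapped on the same strand by CCDC142 over 1337 bases, where reads may have been left out of the count. The part of this overlap in the low level of MRPL53 was not tested. Proteins of the large and of the small subunit had similar medians, 15.0 over 47 genes and 12.8 over 25 genes, so that mRNA levels differed far more within a subunit than between them.

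**Figure D1:**
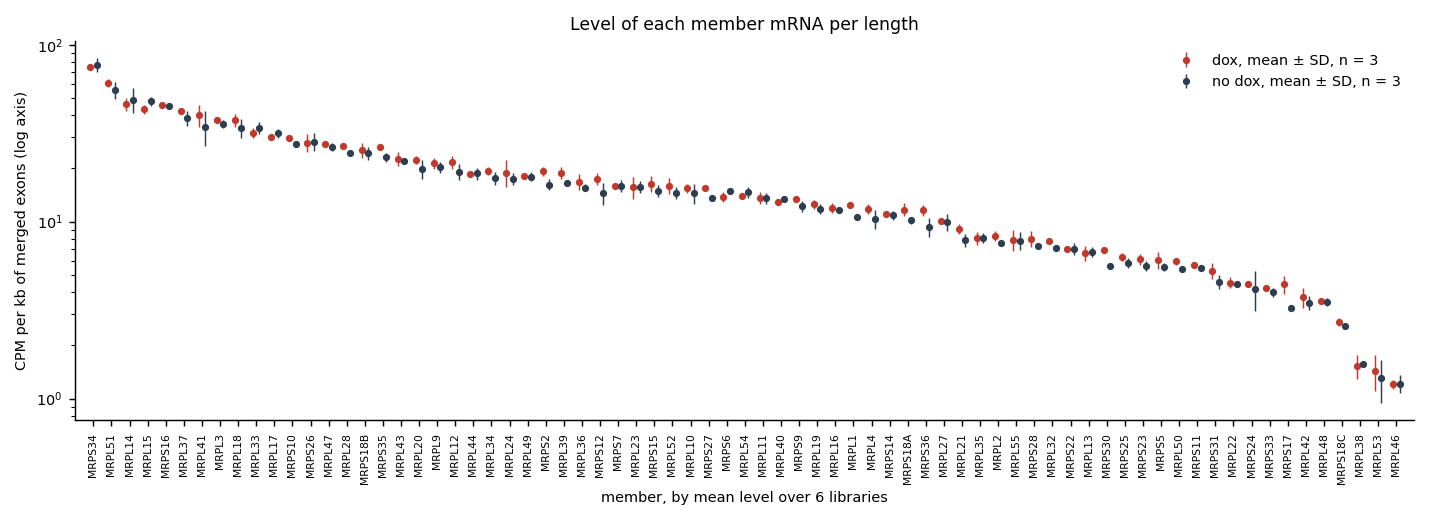
Level of 73 members in CPM per kb of merged exon (vertical log axis) in dox (red, left of each pair) and no dox (dark) libraries, as mean ± SD of 3 libraries, ordered by the mean over all 6. MRPS34 leads at 74.7 in dox and 77.3 in no dox libraries and MRPL46 is lowest at 1.21 in both, and for most members the dox and no dox points lie close together beside this 62.9-fold range.

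The deposited FPKM orders the members differently in places, because the width used for it counted exons once for every annotated transcript in many genes: it equalled the summed exon length of all transcripts in 54 of 73 members and was a median of 2.16 times the merged exon length. By FPKM, MRPL14 came first, at 46.2 ± 3.80 in dox libraries and 49.1 ± 7.99 in no dox libraries, followed by MRPL41 and MRPS34. MRPL55 shows the size of the effect: its width was 14.1 times the merged exon length, and its level was 0.560 ± 0.0784 FPKM in dox libraries and 0.554 ± 0.0669 FPKM in no dox libraries, the lowest but one, yet 7.89 ± 1.10 CPM per merged kb in dox libraries and 7.81 ± 0.943 in no dox libraries. Ranks of the members on both scales had a Spearman rho of 0.852. The merged lengths came from a GENCODE annotation that need not match the one used for counting, and they can err as well. For MRPS23 the merged length was 6379 bases against a width of 2723, and it ranked 59 per merged kb but 15 by FPKM. Which length lies nearer to what was counted was not tested. MRPL30, also a protein of the large subunit, was not in the comparison table. Its FPKM was 0.0249 ± 0.0189 in dox libraries and 0.0123 ± 0.00725 in no dox libraries. Whether this low value reflects expression of MRPL30 or the way its reads were counted was not tested.

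In the comparison of dox with no dox libraries as unpaired groups, limma called 71 of 13153 genes (0.54%) at an adjusted p under 0.05, 42 higher in dox libraries (0.319%) and 29 lower (0.22%), and 0 of the 75 members. At an unadjusted p under 0.05 it marked 8 members (10.7%), against 13% of all genes. On whole reads recovered from the deposited CPM, edgeR's quasi-likelihood test called 0 members, against 0.515% of all genes, with 9 at an unadjusted p under 0.05 (12.8% of all genes), and DESeq2 called 0 members, against 4.01% of all genes, with 7 at an unadjusted p under 0.05 (12.4% of all genes). In the authors' deposited table, 0 members had an adjusted p under 0.05, against 2.78% of all genes, and 4 (MRPS30, MRPL45, MRPS17 and MRPS2) had an unadjusted p under 0.05, against 9.95% of all genes.

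Libraries with the same replicate number deviated from their group means together, both over all genes (r = 0.745, 0.726 and 0.768) and over the members (r = 0.576, 0.476 and 0.455), so the replicate number was also fitted as a block. With it, limma called 2965 genes (22.5%), 1338 higher in dox libraries (10.2%) and 1627 lower (12.4%). Among the members, 13 were called (17.3%): 12 rose (16%) and 1 fell (1.33%). The members' share of calls was thus no higher than that of all genes, and the calls were split 12 to 1 where all genes were split 1338 to 1627. The changes were small: 4 members reached 1.2-fold, 0 reached 1.5-fold, and the median size of change without sign was 0.0926 on the log2 scale, against 0.118 over all genes.

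**Figure D2:**
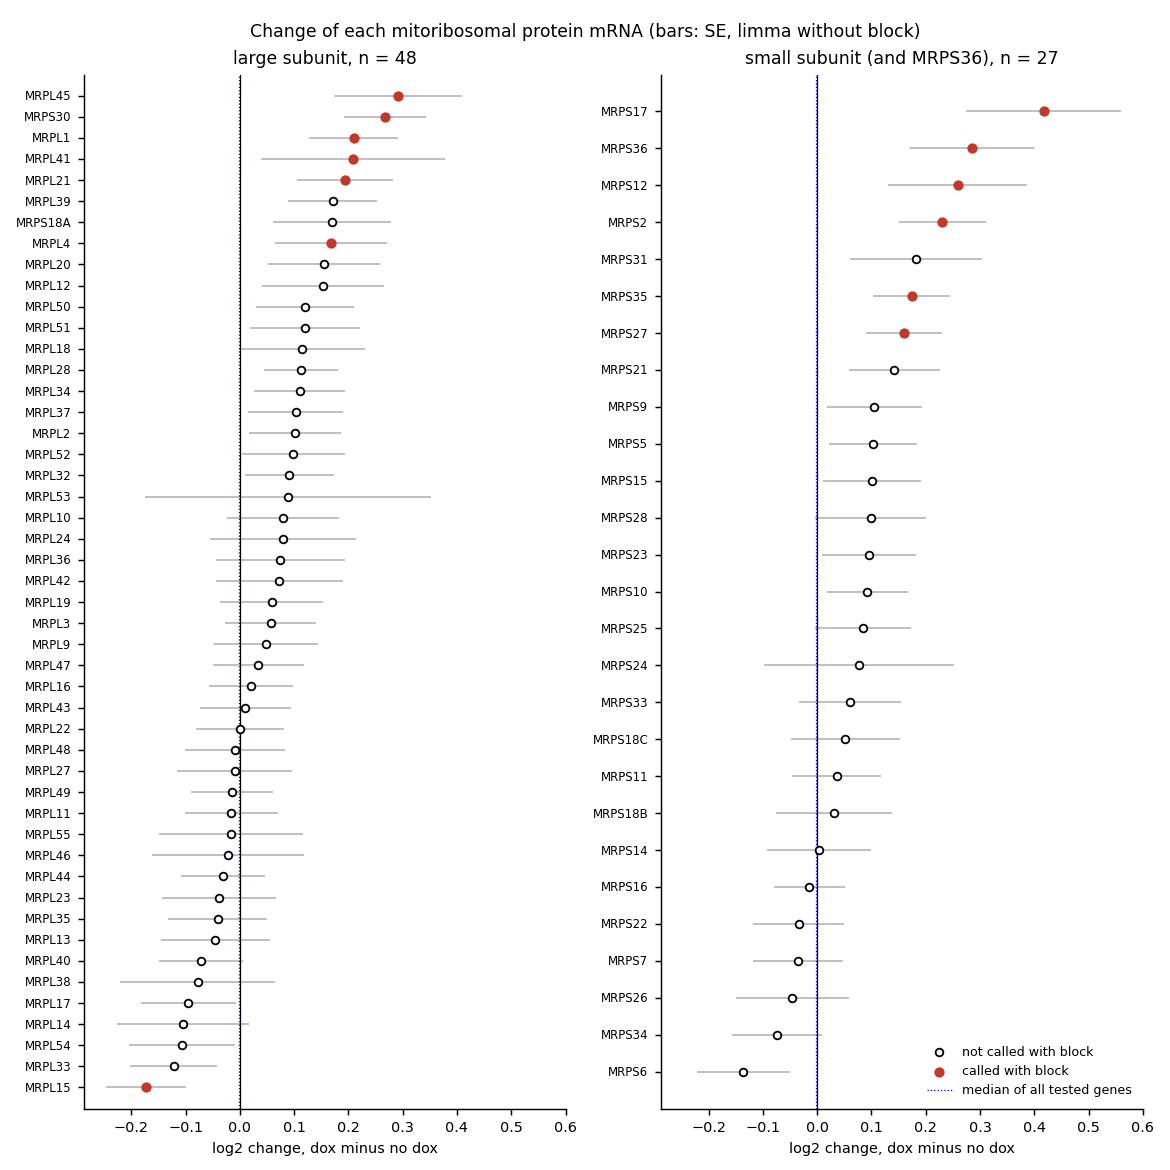
Fitted log2 change (dox minus no dox, horizontal axis) of each of the 75 members, large subunit on the left and small subunit with MRPS36 on the right, with bars for the SE of the fit without block. Filled red points are the 13 members called with the replicate number as a block, 12 above 0 and MRPL15 below 0 at -0.17, and most open points lie to the right of the dotted median of all genes.

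Of the proteins of the small subunit, MRPS17, a homologue of a bacterial rRNA-binding protein, changed most. It had 302, 229 and 298 normalised counts in dox libraries 1, 2 and 3, against 210, 190 and 217 in no dox libraries 1, 2 and 3. All dox libraries lay above all no dox libraries, although dox replicate 2 was close to the no dox range. The log2 difference was 0.42 (SE 0.143 without block, adjusted p = 0.265; SE 0.0919 with block, adjusted p = 0.0104, limma). The gene (ENSG00000239789) lies at chr7:56019512-56024192 in hg19, and GBAS, which overlaps it on the same strand over its whole 4681 bases, had a log2 difference of -0.06 (adjusted p = 0.361 with block).

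MRPS12, the homologue of bacterial S12 at the decoding centre, had 1203, 1005 and 1044 normalised counts in dox libraries, against 1071, 794 and 867 in no dox libraries. The groups overlapped, with no dox replicate 1 above 2 of the dox libraries, but each dox library was higher than the no dox library of its own number. The log2 difference was 0.26 (limma, adjusted p = 0.455 without block and 0.00981 with block). MRPS12 (chr19:39421188-39423802, hg19) overlaps SARS2, the mitochondrial seryl-tRNA synthetase gene, on the opposite strand over 2615 bases. SARS2 had a log2 difference of 0.35 (adjusted p = 0.125 with block), and without a stated strand setting, reads of the 2 genes may not be told apart where they overlap.

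MRPS2, another protein with a bacterial homologue, had 1302, 1381 and 1436 normalised counts in dox libraries, against 1098, 1214 and 1199 in no dox libraries. The groups did not overlap, and the log2 difference was 0.23 (limma, adjusted p = 0.275 without block and 0.00911 with block). The 2 other risers of the small subunit are found only in mitochondria. MRPS35 had 1561, 1486 and 1495 normalised counts in dox libraries, against 1352, 1377 and 1297 in no dox libraries, and MRPS27, a pentatricopeptide repeat protein, had 2854, 2799 and 3057 in dox libraries, against 2552, 2579 and 2664 in no dox libraries. In both, all dox libraries stood above all no dox libraries. The log2 differences were 0.17 for MRPS35 and 0.16 for MRPS27 (limma with block, adjusted p = 0.0304 and 0.0248, and without block, 0.350 and 0.396).

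MRPS6, homologous to bacterial S6, leaned the other way without passing either fit. It had 1616, 1670 and 1842 normalised counts in dox libraries, against 1837, 1784 and 2013 in no dox libraries, a log2 difference of -0.14 (limma with block, adjusted p = 0.0604). MRPS34, the most abundant member per length, had 2407, 2353 and 2312 normalised counts in dox libraries, against 2737, 2402 and 2325 in no dox libraries, which overlapped. Its log2 difference of -0.07 did not pass (limma with block, adjusted p = 0.313).

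In the large subunit, the mitochondria-specific MRPL45 led. MRPL45 lies at the tunnel exit, where it tethers the ribosome to the inner membrane. It had 1056, 1031 and 1275 normalised counts in dox libraries, against 820, 905 and 1020 in no dox libraries. All dox libraries stood above all no dox libraries, although dox replicate 2, at 1031, was close to no dox replicate 3, at 1020. The log2 difference was 0.29 (SE 0.118 without block, adjusted p = 0.349, and SE 0.0565 with block, adjusted p = 0.00581, limma). The gene (ENSG00000174100) lies at chr17:36452989-36479101 in hg19.

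MRPS30 keeps a small subunit symbol but sits in the large subunit in the structures. It had 1304, 1201 and 1209 normalised counts in dox libraries, against 1013, 1010 and 1061 in no dox libraries. Here the gap between groups was wider than the range within either group. The log2 difference was 0.27 (SE 0.0751 without block, adjusted p = 0.173; SE 0.0548 with block, adjusted p = 0.00759, limma), for a gene at chr5:44809027-44820530 in hg19. MRPS18A, the other protein of the large subunit with a small subunit symbol, had 404, 413 and 481 normalised counts in dox libraries, against 376, 363 and 411 in no dox libraries. Its groups overlapped, and its log2 difference of 0.17 was not called (limma with block, adjusted p = 0.118).

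MRPL1, of the mobile stalk beside the exit site for tRNA, had 730, 672 and 698 normalised counts in dox libraries, against 620, 586.3 and 608 in no dox libraries. MRPL21 had 701, 757 and 766 normalised counts in dox libraries, against 603, 683 and 659 in no dox libraries. In both genes the groups did not overlap, although for MRPL21 dox replicate 1, at 701, was close to no dox replicate 2, at 683. The log2 differences were 0.21 for MRPL1 and 0.19 for MRPL21 (limma with block, adjusted p = 0.0300 and 0.0399, and without block, 0.332 and 0.417).

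MRPL41, mitochondria-specific, had 1721, 1345 and 1319 normalised counts in dox libraries, against 1608, 1124 and 1094 in no dox libraries. MRPL4, a homologue of a protein that lines the exit tunnel in bacteria, had 1477, 1377 and 1302 normalised counts in dox libraries, against 1399, 1193 and 1119 in no dox libraries. In both genes replicate 1 was high in either group, so that the groups overlapped while each numbered pair rose. The log2 differences were 0.21 for MRPL41 (adjusted p = 0.700 without block and 0.0206 with block) and 0.17 for MRPL4 (0.576 and 0.0437), both with limma.

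MRPL15, a homologue of bacterial L15, was the 1 member that fell. It had 1535, 1491 and 1413 normalised counts in dox libraries, against 1731, 1672 and 1604 in no dox libraries. Every dox library lay below every no dox library, and the pairs differed by a near-constant amount, -0.17, -0.17 and -0.18 on the log2 scale (limma, fitted -0.17, adjusted p = 0.373 without block and 0.0228 with block). MRPL40, the other member whose dox libraries all lay below its no dox libraries, had 745, 707 and 745 normalised counts in dox libraries, against 768, 746 and 795 in no dox libraries. The MRPL40 difference of -0.07 was not called (limma with block, adjusted p = 0.400).

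MRPS36 rose as well, although its product is now known as KGD4, a component of the 2-oxoglutarate dehydrogenase complex and not of the ribosome. It had 475, 516 and 544 normalised counts in dox libraries, against 367, 448 and 447 in no dox libraries. The groups did not overlap, and the log2 difference was 0.29 (limma, adjusted p = 0.345 without block and 0.0164 with block). Of the 74 members that do belong to the ribosome, 11 therefore rose and 1 fell.

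**Figure D3:**
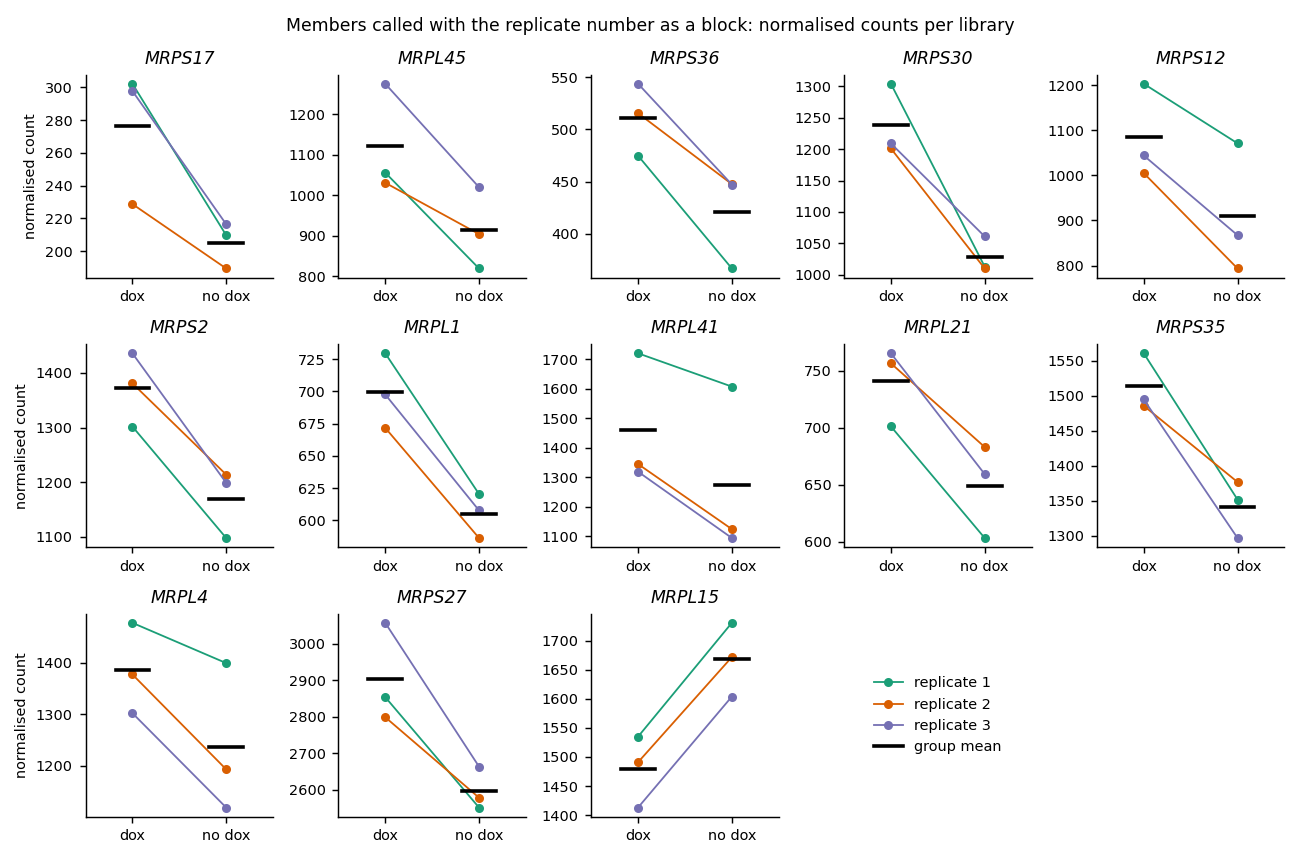
Normalised counts (vertical axes, each panel with its own range that does not start at 0) of the 13 members called with block, in dox (left) and no dox (right) libraries; lines join libraries of the same replicate number and black bars are group means. In 12 panels all 3 lines run down toward no dox, and in MRPL15 all 3 run up, while in MRPS12, MRPL41 and MRPL4 the groups overlap and replicate 1 stands high in both.

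The remaining members chosen for their role, level or direction were not called. MRPL12, part of the stalk that recruits translation factors and reported to bind mitochondrial RNA polymerase, had 677, 657 and 590 normalised counts in dox libraries, against 655, 518 and 563 in no dox libraries. Its log2 difference was 0.15 (limma with block, adjusted p = 0.171), and the same-strand neighbour SLC25A10, which overlaps it over 4153 bases, rose by 0.28 (adjusted p = 0.0238 with block). MRPL33 had 1337, 1429 and 1456 normalised counts in dox libraries, against 1614, 1551 and 1434 in no dox libraries, and MRPL54 had 394.7, 383 and 427 in dox libraries, against 457, 434 and 407 in no dox libraries. In both, pairs 1 and 2 were lower with doxycycline and pair 3 was higher. MRPL17 had 1983, 1871 and 2058 normalised counts in dox libraries, against 2244, 1900 and 2183 in no dox libraries, and MRPL14 had 1323, 1307 and 1182 in dox libraries, against 1616, 1330 and 1183 in no dox libraries. Both were lower in every pair, by little in pair 2 and, for MRPL14, by almost nothing in pair 3. The log2 differences of these 4 genes were -0.12, -0.11, -0.10 and -0.10 (limma with block, adjusted p = 0.180, 0.378, 0.190 and 0.271). The lowest by FPKM were MRPL38, with 136.5, 181 and 166 normalised counts in dox libraries, against 175, 167 and 165 in no dox libraries, MRPL55, with 476, 440.4 and 368 in dox libraries, against 485, 425 and 388 in no dox libraries, and MRPL53, with 40.5, 62.4 and 62.8 in dox libraries, against 46.3, 65.5 and 43.5 in no dox libraries. Their pairs went both ways, the log2 differences were -0.08, -0.02 and 0.09, and MRPL53 was counted with only 21 to 110 reads per library. Just outside the threshold lay MRPL20, at 0.15 (limma with block, adjusted p = 0.0561), which edgeR with block called.

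Counts over all members, with no call on any single gene, leaned the same way as the blocked calls. Dox libraries lay wholly above no dox libraries in 12 members (16%), against 9.03% of all genes, and wholly below in 2 (2.67%), against 10%. All 3 numbered pairs were higher in dox libraries in 33 members (44%), against 26.5% of all genes, and lower in 7 (9.33%), against 28.5%. The fitted change was above 0 in 69.3% of members, against 49.4% of all genes. The median over members was 0.05, 0.07 and 0.09 on the log2 scale in pairs 1, 2 and 3.

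In the large subunit 31 of 48 members had a fitted change above 0 and the median was 0.0655, but the median was 0.0163 without no dox replicate 2 and 0.0308 with block without pair 3. With block 6 of them rose (12.5%), against 10.2% of all genes, and 1 fell. In the small subunit 20 of 26 had a fitted change above 0 and the median was 0.0885. With block 5 of them rose (19.2%), against 10.2% of all genes, and 0 fell. By symbol alone, the 46 MRPL genes had a median of 0.06 and the 29 MRPS genes a median of 0.10, with MRPS30, MRPS18A and MRPS36 counted among the MRPS symbols. Proteins with a bacterial homologue had medians of 0.06 in the large (29 genes) and 0.10 in the small subunit (16 genes), and mitochondria-specific proteins 0.09 in the large (19 genes) and 0.07 in the small subunit (10 genes), so neither origin stood above the other in both subunits. The differences between classes were not tested.

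Taken as 1 sum, the members held 0.303, 0.308 and 0.300% of gene-assigned reads in dox libraries, against 0.296, 0.289 and 0.275% in no dox libraries. The dox libraries were all above the no dox libraries, at 0.304 ± 0.00400% and 0.287 ± 0.0108% (mean ± SD, n = 3 each). The members' mean on the log2 scale of normalised counts, in which each gene weighs the same, was 9.89, 9.86 and 9.91 in dox libraries, against 9.87, 9.79 and 9.80 in no dox libraries, where no dox replicate 1 reached into the dox range. Within groups, without regard to replicate number, the members had a median SD of 0.0947 on the log2 scale. It was 0.153 over all tested genes and 0.229 over 76 cytosolic ribosomal protein genes. With the replicate number as a block the order differed. The median SE of the change was then 0.0577 for the members, 0.0649 for all tested genes and 0.0456 for the cytosolic ribosomal protein genes. Of the members, 50 lay above the median level of tested genes, and the part of level in their spread was not tested.

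The count with block leans on which pairs are present. Without pair 1 it was 20 members (26.7%), against 29.2% of all genes, and 19 of them rose (25.3%), against 13.4%. Without pair 2 it was 3 members, all of which rose (4%), against 10.8% of all genes called and 4.44% called higher. Without pair 3 it was 2 members, both of which rose (2.67%), against 13.5% of all genes called and 5.87% called higher. The share of members that rose was therefore above that of all genes with all pairs and without pair 1, and below it without pair 2 or pair 3. MRPL45 and MRPS30 were called in each of these 3 fits and MRPS17 in 2 of them, and the other 10 only without pair 1. In all 3 fits each of the 13 had the same direction as with every pair. With block, edgeR called 14 members, against 23.4% of all genes: 13 rose, against 11.4%, and 1 fell, against 12%. They were the same 13 and MRPL20. DESeq2 with block called 4 members, against 14.3% of all genes, all of them higher in dox libraries, against 6.24%, and all among the 13 (MRPL45, MRPS30, MRPS12 and MRPS2).

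Genes that act with the members were counted in lists, whose calls are with block and are to be read against the 22.5% of all genes called, 10.2% higher and 12.4% lower. A further 7 proteins of the mitochondrial ribosome carry names outside the MRPL and MRPS series. Their median was 0.02, and 4 of 7 had a fitted change above 0. Of these, DAP3, a GTP-binding protein of the small subunit, had 2111, 1932 and 2019 normalised counts in dox libraries, against 1913, 1763 and 1800 in no dox libraries, and rose by 0.15 (limma with block, adjusted p = 0.0396), while MRP63, at 0.13, and the other 5 were not called, with PTCD3, CHCHD1 and AURKAIP1 each at -0.02. All 16 genes in the list of translation factors and related proteins, such as OXA1L and LRPPRC, had a fitted change above 0. Their median was 0.12, and with block 5 rose (31.2%) and 0 fell. OXA1L, which inserts newly made mitochondrial proteins into the inner membrane, had 3309, 3817 and 3696 normalised counts in dox libraries, against 2478, 3114 and 3001 in no dox libraries. Its difference was 0.34 (limma, adjusted p = 0.224 without block and 8.03e-04 with block). The initiation factor MTIF2 had 1053, 1008 and 1036 normalised counts in dox libraries, against 748, 907 and 880 in no dox libraries, and rose by 0.29 (adjusted p = 0.0153 with block). The 3 others that rose, named after their values were seen, were the mRNA-binding LRPPRC (0.22), the elongation factor TUFM (0.22) and the recycling factor GFM2 (0.21).

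Of 29 factors for assembly of the ribosome and modification of its rRNA, 4 rose (13.8%) and 0 fell with block, and the median was 0.08. PNPT1, a mitochondrial exoribonuclease, rose by 0.26 (limma with block, adjusted p = 0.00710) and RPUSD4, a pseudouridine synthase, by 0.22 (adjusted p = 0.0212), and the other 2, named after their values were seen, were MPV17L2 (0.40) and NOA1 (0.20). Of 9 genes of mitochondrial transcription and DNA maintenance, 3 rose (33.3%) and 0 fell, with a median of 0.15: the terminator MTERF rose by 0.39 (adjusted p = 0.0169), the RNA polymerase POLRMT by 0.24 (adjusted p = 0.0215) and, named after its value was seen, the helicase C10orf2 by 0.22 (adjusted p = 0.0396). TFAM, which packages mitochondrial DNA, was at -0.02 and was not called. Without block, limma, edgeR and DESeq2 each called 0 genes of these lists. At an unadjusted p under 0.05 limma marked 5 genes in the list of translation factors and related proteins. It also marked 2 assembly factors and 1 gene of transcription and DNA maintenance.

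Of the 13 mRNAs of the mitochondrial genome itself, 5 fell and 1 rose with block (46.2% called), the median was -0.12, and 9 had a fitted change under 0. Their median was -0.25 in pair 2 but -0.03 and -0.01 in pairs 1 and 3. MT-ND4L, of complex I, had 14160, 12230 and 13860 normalised counts in dox libraries, against 14440, 17080 and 17080 in no dox libraries, and fell by 0.27 (limma with block, adjusted p = 0.0240). MT-ND5, also of complex I, had 48180, 39870 and 51100 normalised counts in dox libraries, against 55530, 53350 and 61550 in no dox libraries, and fell by 0.30 (adjusted p = 0.00436). In both, every dox library was below every no dox library. The 3 others that fell, named after their values were seen, were MT-CO1 (-0.35), MT-CO2 (-0.30) and MT-ND6 (-0.28), and the 1 that rose was MT-ATP6 (0.21).

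The rRNAs of the mitochondrial ribosome, MT-RNR1 and MT-RNR2, were not called. MT-RNR1, the rRNA of the small subunit, had 21170, 16960 and 22800 normalised counts in dox libraries, against 18380, 21750 and 27560 in no dox libraries. MT-RNR2, of the large subunit, had 97840, 80800 and 140700 normalised counts in dox libraries, against 91210, 106700 and 159100 in no dox libraries. The numbered pairs went both ways, with a median of 0.15 in pair 1 and -0.38 and -0.23 in pairs 2 and 3. Libraries were made from polyadenylated RNA, so the counts of these rRNAs reflect what that selection retained.

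**Figure D4:**
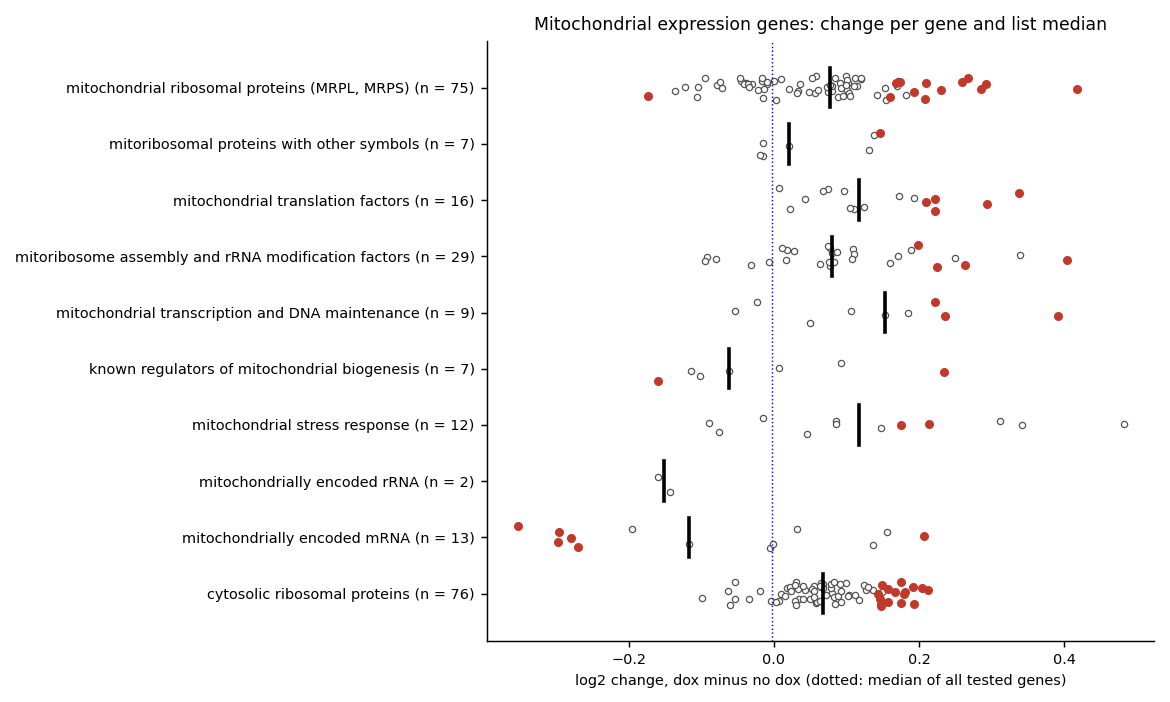
Fitted log2 change (dox minus no dox, horizontal axis) of each gene in the members and in 9 related lists; filled red points were called with the replicate number as a block, black bars are list medians and the dotted line is the median of all genes. The members' median is 0.077. The list of translation factors, which also holds related proteins such as OXA1L and LRPPRC, lies wholly above 0 with a median of 0.12. Mitochondrial mRNAs have a median of -0.12 with 5 called lower and 1 higher.

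Of 7 known regulators of mitochondrial biogenesis, 1 rose and 1 fell with block (28.6% called). MYC had 2702, 2473 and 2436 normalised counts in dox libraries, against 2192, 2099 and 2174 in no dox libraries, and rose by 0.23 (limma, adjusted p = 0.218 without block and 0.00635 with block). YY1 was at -0.10 (adjusted p = 0.102 with block) and NRF1 at -0.11 (adjusted p = 0.273), neither called, and GABPA, named after its value was seen, fell by 0.16 (adjusted p = 0.0492). Of 12 genes of the mitochondrial stress response, 2 rose (16.7%) and 0 fell: the unfoldase CLPX by 0.18 (adjusted p = 0.0329) and the chaperonin HSPE1 by 0.21 (adjusted p = 0.0390). ATF4, DDIT3 and ASNS, which respond when mitochondrial translation is blocked, were not called, and in each of them the range within at least 1 group was wider than the difference of the group means. ASNS, which makes asparagine, had 2141, 907 and 669 normalised counts in dox libraries, against 480, 1974 and 1415 in no dox libraries.

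The cytosolic ribosomal proteins, the nearest counterpart of the members, leaned up to a like extent. Of 76 genes, 68 had a fitted change above 0, the median was 0.07, and with block 16 rose (21.1%), against 10.2% of all genes, and 0 fell (limma). In pairs 1, 2 and 3 their median was 0.07, 0.02 and 0.14, against 0.05, 0.07 and 0.09 for the members. The difference between the 2 sets was not tested, and the lean toward higher values is not shown to be particular to the mitochondrial ribosome.

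Other genes overlap 30 of the members in hg19, 9 on the same strand and 23 on the opposite strand, and 34 members have named pseudogenes. Reads in shared stretches could have been assigned to either copy or left out. Their part in the values above was not tested.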

How the data were processed

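Poly(A) RNA of 3 dox and 3 no dox libraries was sequenced. Build hg19 and the tools Trimmomatic, bcl2fastq, edgeR and TopHat, with no role or version, are listed per the submitters' processing notes. No strand setting of the counting is given. Deposited by the authors were depth-equalised normalised counts (a signal that is not whole numbers, made by a formula that no source used here states), FPKM, and a comparison table with per-library CPM, a log2 fold change, a likelihood ratio score and p-values, per the file headers. FPKM equalled CPM per kilobase of the table's width (largest relative difference 1.5e-07), and CPM returned whole reads for 100% of values within 0.01.

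Members and gene lists were chosen with earlier results of these data known. On log2(normalised count + 1), after requiring 10 normalised counts in 3 libraries (8 of 13161 genes removed), limma 3.58.1 in R 4.3.3 compared dox with no dox libraries, with two-sided p-values adjusted by Benjamini-Hochberg over all 13153 tested genes. Fold changes on this scale understate those of low genes. Reads recovered from CPM were also tested with edgeR 4.0.16 and DESeq2 1.42.0. The fit was checked on simulated data in which the changed genes differed by at least 1.5-fold. No member changed by as much, so the check does not cover changes of the size seen in the members. The replicate numbers come from the sample titles. Same-numbered libraries had correlated deviations (0.726 to 0.768 over all genes), so they were taken to pair the libraries, and the blocked value is printed where it changes a call. The fit left 4 residual degrees of freedom per gene without the block and 2 with it, and fewer with a pair left out. Blocked p-values therefore lean on the variance that limma shares between genes. No pair of libraries agreed within sampling noise (chi-square per degree of freedom at least 16). The members given library by library were those with the largest rises and falls among the called, filled up by smallest p, the 3 highest and 3 lowest by FPKM, and MRPS12, MRPL12, MRPS30, MRPS18A and MRPS36, besides the other members called with block; in each other list, the 2 genes of smallest p.

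Alternatives were other pseudocounts, filters, scalings, FPKM, the block, the count tests and leaving out each library. Promoter windows are from RefSeq. Figures were drawn with matplotlib 3.10.9.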

Additional observations from a re-analysis of the deposited data

How the results depend on the processing

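No member was called without a replicate block under any alternative tried, including each library left out. With the block, 13 members were called by limma, 14 by edgeR, 4 by DESeq2, and 14 each on FPKM or after TMM, median-of-ratios or quantile scaling; without pair 1, 2 or 3 the counts were 20, 3 and 2. The genes shared among these fits were 13 of the 14 of edgeR and of each scaling, and 12 of the 14 on FPKM. Over all genes, 71 calls became 31 on FPKM, 522 with DESeq2, 2965 with the block, 3047 with edgeR and the block, 1751 with DESeq2 and the block, 2081 on FPKM with the block, 2978, 2992 and 2918 with the block after TMM, median-of-ratios or quantile scaling, and 3835, 1414 and 1779 with the block without pair 1, 2 or 3. Leaving out 1 library without the block gave 3 to 21 calls: without dox replicates 1, 2 and 3 there were 21, 5 and 4, and without no dox replicates 1, 2 and 3 there were 16, 8 and 3. The fits with a pair left out or with the block on another scale or tool (apart from edgeR) were chosen after seeing the data. The cause of these shifts was not tested.

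The members' median log2 change of 0.0767 stayed above 0 throughout; it was 0.104 on FPKM, with or without the block, 0.0470 with the block without pair 3, and 0.0604 to 0.0995 with 1 library left out. The median of the large subunit (0.0655) was 0.0908 on FPKM, 0.0308 with the block without pair 3 and 0.0163 to 0.0978 with 1 library left out, the lowest without no dox replicate 2; that of the small subunit (0.0885) was 0.114 on FPKM, 0.0632 with the block without pair 3 and 0.0716 to 0.0939 with 1 library left out. By symbol prefix the medians were 0.0575 and 0.0956. The median of all genes was at most 0.0232 from 0 under each scaling and on FPKM.

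Calls in the other mitochondrial lists numbered 23 with the block, 26 with edgeR, 15 with DESeq2, 15 on FPKM, 23 after TMM, 23 after median-of-ratios and 24 after quantile scaling, and 33, 6 and 17 without pair 1, 2 or 3, all with the block and against 0 without it. The cytosolic ribosomal proteins and the cell type markers are not in these counts.

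Of 650 values for 25 named members under 26 alternatives, 537 kept their direction and side of the threshold, 101 kept their direction and became calls, and 12 changed sign, all uncalled. With 1 library left out, MRPL14 ranged from -0.208 to 0.0167 (above 0 without no dox replicate 1), MRPL38 from -0.165 to 0.0359 (above 0 without dox replicate 1), MRPL55 from -0.0973 to 0.0876 (above 0 without dox replicate 3, and at 0.0686 without no dox replicate 1) and MRPL53 from -0.0232 to 0.293 (under 0 without no dox replicate 3 and without dox replicates 2 and 3). With the block, MRPL38 was at 0.0614 without pair 1, and MRPL55 at 0.0126 and MRPL53 at -0.128 without pair 3. On FPKM, MRPL55 was at 0.01002 with or without the block. The cause of these sign changes was not tested. MRPL53, at 21 to 110 reads per library, and MRPL38, at 83 to 323, were the members whose depth limits the comparison most. For MRPL53 the overlap with CCDC142 on the same strand may have lowered the count, which was not tested.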
